A study of Mus musculus with 34 samples.

Results

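The 10 genes described here carry the liver's side of iron and metal handling: *Hamp*, *Hamp2*, *Id1*, *Tfrc*, *Trf*, *Slc39a14*, *Slc40a1*, *Fth1*, *Mt1* and *Mt2*. They were chosen by name from the 78298 genes of the count table and matched by gene identifier, and all 10 passed the filter on low counts, which left 14980 genes. The livers came from male C57/Bl6 mice aged 8 to 12 weeks, before and after removal of 70% of the liver (partial hepatectomy, PHx). SIRT1intKO mice carried a floxed exon 4 of *Sirt1* and a Cre recombinase driven by the Villin promoter, which is active in intestinal epithelium, and WT mice were littermates with the same floxed alleles and no Cre. Bulk mRNA of whole liver was sequenced from 6, 6 and 4 WT livers and from 6, 5 and 7 SIRT1intKO livers at 0, 6 and 24 hours, where 0 hours stands for untreated mice without surgery, and the study asked how the intestinal deletion changes the response of the liver to PHx.

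Hepcidin, the peptide encoded by *Hamp*, is made by hepatocytes and makes cells take in and degrade ferroportin (*Slc40a1*), the only known exporter of iron from cells. Its transcription follows iron through BMP ligands and SMAD factors, which also switch on *Id1*, and follows inflammation through IL-6 and STAT3. Metallothioneins bind zinc and copper, and in the liver their genes respond to metals through the factor MTF-1, to glucocorticoids and to inflammation. *Hamp2* is a mouse duplicate of *Hamp* whose product is not known to regulate ferroportin.

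The sequences just before the annotated starts of *Hamp*, *Hamp2* and *Mt2* are shown because the hepcidin duplicates moved in opposite directions and *Mt2* rose after PHx in both genotypes. All 3 come from RefSeq on GRCm38.p6, run 5′ to 3′ on the gene's strand and end at the base before the start. The *Hamp* window is chr7:30944030-30944279 and the *Hamp2* window chr7:30924182-30924431, both on the minus strand, and the *Mt2* window is chr8:94172368-94172617 on the plus strand.
*Hamp*: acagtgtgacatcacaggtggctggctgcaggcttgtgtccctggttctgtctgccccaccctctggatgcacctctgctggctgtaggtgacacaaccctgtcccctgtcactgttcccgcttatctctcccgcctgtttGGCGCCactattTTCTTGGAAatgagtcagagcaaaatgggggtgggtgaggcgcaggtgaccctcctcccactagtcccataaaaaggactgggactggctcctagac
*Hamp2*: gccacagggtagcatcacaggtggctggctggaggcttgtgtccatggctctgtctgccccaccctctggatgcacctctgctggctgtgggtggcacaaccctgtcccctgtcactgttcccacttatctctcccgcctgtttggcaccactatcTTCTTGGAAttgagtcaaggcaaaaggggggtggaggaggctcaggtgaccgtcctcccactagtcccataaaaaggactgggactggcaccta
*Mt2*: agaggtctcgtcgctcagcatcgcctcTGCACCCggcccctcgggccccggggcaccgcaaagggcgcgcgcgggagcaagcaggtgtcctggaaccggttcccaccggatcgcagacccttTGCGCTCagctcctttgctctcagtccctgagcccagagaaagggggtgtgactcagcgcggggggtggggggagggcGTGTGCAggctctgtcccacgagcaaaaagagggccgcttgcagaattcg

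Capitals mark matches to letters searched on both strands of the 250 bases. In the hepcidin windows these are GGCGCC, the core of a BMP response element, and TTCNNNGAA, the form bound by STAT factors. *Hamp* held GGCGCC starting 109 bases before the start, while the aligned letters in *Hamp2* differed by G4A, counted from 1 at the 5′ end of the motif, so that *Hamp2* had no match. The STAT form was in both, starting 97 bases before the start of *Hamp* and 94 before that of *Hamp2*. Over 247 aligned bases the windows were identical at 227 (91.9%). GGCGCC was in 9.59% and TTCNNNGAA in 7.02% of 32851 promoter windows of the same length.

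In the *Mt2* window the capitals mark the cores of metal response elements, TGCACNC or TGCGCNC, which do not overlap each other. *Mt2* had 3 matches, starting 223 and 128 bases before the start and, on the minus strand, 50 bases before it, and 1.26% of promoter windows held at least 3. The *Mt1* window of that table was not used, because the annotated gene begins inside it and only 44 of its bases lie before that. A match is a description of letters and was not tested for binding. RefSeq's table held promoter windows for *Tfrc* and *Fth1* too, and none was used for *Id1*, *Trf*, *Slc39a14* and *Slc40a1*.

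After PHx 6 of the 10 genes changed in WT livers at 6 hours, 5 higher and 1 lower. To be called, a gene needed a log2 fold change over 1 in either direction and an adjusted p under 0.05 in edgeR's quasi-likelihood test, with adjustment over all genes tested, and 15.6% of all genes were called in this comparison. At 24 hours against 0 hours 6 members were called in WT livers (15.7% of all genes) and from 6 to 24 hours 1 member was called (7.16%). In SIRT1intKO livers 5 members were called at 6 hours (16.6%), 6 at 24 hours (23%) and 1 between 6 and 24 hours (10.6%). *Hamp*, *Slc39a14*, *Mt1* and *Mt2* were called higher and *Hamp2* lower in all 4 comparisons with 0 hours, and *Id1* was called higher in 3 of them. The 10 genes were chosen with earlier results of these data known, so their counts beside the shares of all genes are a description and no test. The comparisons of 6 and 24 hours share their 0-hour livers, so the counts of a genotype are not independent of each other.

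Depth limited the rarest member. Expected counts summed to between 14892122 and 23480492 per library, with a median of 16807340, and levels are given as CPM, counts per 1000000 counts of a library after TMM scaling. The names of the 0-hour libraries in the labels belong to a number series separate from that of the libraries after PHx, so a difference in handling cannot be told apart from PHx. *Sirt1* itself is no check of the genotype here, since the deletion is in the intestine, and it lay between 8.35 and 23.1 CPM in WT and between 6.92 and 16.3 CPM in SIRT1intKO livers. Its log2 fold change in SIRT1intKO against WT livers was -0.02 at 0 hours and -0.13 at 6 hours. At 24 hours it was -0.65 (SE 0.22, adjusted p = 0.0726 in edgeR's test), not called. Of the cell type marker lists no gene was at 0 in all libraries. The 7 hepatocyte markers summed to at least 31900 CPM in every library, with a median of 71000, 55300 and 36000 CPM in WT livers and of 72900, 60700 and 54300 CPM in SIRT1intKO livers at 0, 6 and 24 hours. Of these 7 markers 0 were called higher and 2 lower at 24 than at 0 hours in WT livers (median log2 fold change -0.42). In SIRT1intKO livers 0 were higher and 1 lower (median -0.30), so the sums did not fall through all markers alike. In whole liver, fewer cells of a type and less RNA per cell cannot be told apart, nor can a change of single marker genes.

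*Hamp* rose early after PHx in both genotypes. In WT livers it lay between 323 and 826 CPM at 0 hours (median 466) and between 1280 and 4480 CPM at 6 hours (median 2840), and the groups did not overlap. At 24 hours the 4 WT livers had 1020, 1320, 848 and 1100 CPM. All 4 were above every liver at 0 hours, and 3 of them were below every liver at 6 hours. The log2 fold change was 2.54 at 6 hours (SE 0.402, adjusted p = 1.02e-05), a 5.83-fold rise, and 1.12 at 24 hours (SE 0.419, adjusted p = 0.038). From 6 to 24 hours *Hamp* fell by 1.42 on the log2 scale (SE 0.446, adjusted p = 0.0265).

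The later WT changes of *Hamp* were close to the threshold. The call at 24 hours against 0 hours was lost in 8 of 10 fits that left out 1 library, those without WT replicates 1, 2 or 4 at 24 hours or 1, 3, 4, 5 or 6 at 0 hours, with log2 fold changes from 1.00 upward and adjusted p from 0.0541 to 0.117. The call between 6 and 24 hours was lost without replicate 1 (adjusted p = 0.0805) or 3 (0.0663) at 24 hours or replicate 6 at 6 hours (0.0573). The change at 6 hours kept its call in every such fit.

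SIRT1intKO livers spread widely in *Hamp* after PHx, and their spread was not tested against that of WT livers. They lay between 287 and 747 CPM at 0 hours (median 522), and the 5 livers at 6 hours had 2010, 805, 454, 2490 and 2000 CPM. Replicate 3 at 6 hours was within the range of the 0-hour livers, and the other 4 were above it. At 24 hours the 7 livers lay between 825 and 4570 CPM (median 1220), all above the 0-hour livers, with replicate 2 highest. The log2 fold change was 1.54 at 6 hours (SE 0.401, adjusted p = 0.00291) and 1.76 at 24 hours (SE 0.382, adjusted p = 0.000357). The latter was 1.33 without replicate 2. From 6 to 24 hours the difference was 0.21 (SE 0.387, adjusted p = 0.718).

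*Hamp2* went the opposite way. In WT livers it fell from between 3.21 and 26.3 CPM at 0 hours (median 6.85) to between 0.429 and 4.9 CPM at 6 hours (median 1.65), and to 0.0615, 0.686, 0.262 and 0.996 CPM in the 4 livers at 24 hours. The groups at 0 and 6 hours overlapped, and those at 0 and 24 hours did not. The change was -2.42 at 6 hours (SE 0.555, adjusted p = 0.000924), which is 5.35-fold lower, and -4.34 at 24 hours (SE 0.744, adjusted p = 6.18e-05), which is 20.3-fold lower. The 24-hour value was -4.93 without replicate 4. In SIRT1intKO livers *Hamp2* lay between 2.76 and 14.5 CPM at 0 hours (median 6.58), was 1.09, 0.211, 0.818, 2.31 and 1.68 CPM at 6 hours, and lay between 0.163 and 0.904 CPM at 24 hours (median 0.602). Both later groups were wholly below the 0-hour livers, by -2.51 at 6 hours (SE 0.612, adjusted p = 0.00166) and -3.75 at 24 hours (SE 0.581, adjusted p = 5.2e-06). The low values rest on few reads, 1 to 20 counts per WT library and 3 to 17 per SIRT1intKO library at 24 hours.

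Within each library the duplicates therefore shifted against each other. At 0 hours there were between 8.04 and 31.8 *Hamp2* counts for every 1000 *Hamp* counts in WT livers (median 16.9), against 0.167 to 1.39 at 6 hours and 0.0604 to 0.901 at 24 hours. In SIRT1intKO livers the ratio was between 7.02 and 19.4 at 0 hours (median 12.7), 0.263 to 1.8 at 6 hours and 0.133 to 0.853 at 24 hours. In both genotypes every liver after PHx was below every liver at 0 hours. Reads of near-identical duplicates can be assigned to the wrong copy, so the *Hamp2* level is uncertain.

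**Figure D1:**
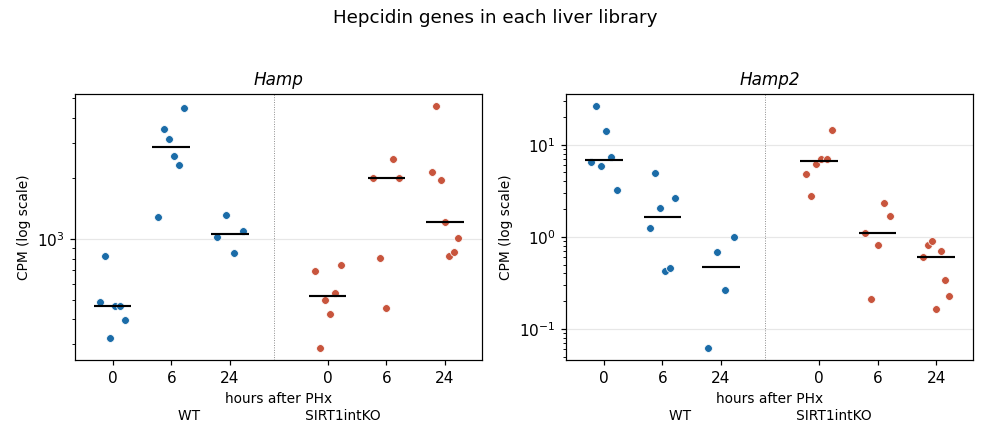
*Hamp* (left) and *Hamp2* (right) in each liver library, in CPM on log axes, against hours after PHx, with WT in blue and SIRT1intKO in red. Points are libraries and lines are group medians. *Hamp* medians went from 466 to 2840 and *Hamp2* medians from 6.85 to 1.65 CPM between 0 and 6 hours in WT livers.

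*Id1*, an inhibitor of helix-loop-helix factors and a direct target of BMP-SMAD signaling, had its highest median at 24 hours in both genotypes. WT livers lay between 3.88 and 11.6 CPM at 0 hours (median 6.26) and between 8.82 and 20.9 CPM at 6 hours (median 15.3), with overlap, and had 58.5, 31, 12 and 24.4 CPM at 24 hours, all above the 0-hour livers. The log2 fold change was 1.08 at 6 hours (SE 0.36, adjusted p = 0.0177) and 2.11 at 24 hours (SE 0.39, adjusted p = 0.000142). The 6-hour value went under the fold threshold, to between 0.96 and 0.99, without replicate 2 or 6 at 6 hours or 1, 5 or 6 at 0 hours. SIRT1intKO livers lay between 2.65 and 13.4 CPM at 0 hours (median 5.11), had 11.3, 16.8, 16, 16.9 and 5.99 CPM at 6 hours, and lay between 23.9 and 55.6 CPM at 24 hours (median 45.3). The 24-hour group was above both earlier groups. Against 0 hours the change was 1.00 at 6 hours (SE 0.376, adjusted p = 0.0356), at the fold threshold but not over it, and 2.63 at 24 hours (SE 0.365, adjusted p = 1.07e-06). The 6-hour value was called, at 1.01 to 1.32, in 4 of 11 fits that left out 1 library, those without replicate 1 or 5 at 6 hours or replicate 1 or 5 at 0 hours, and also with every gene of at least 1 count (adjusted p = 0.0458) or with only the 2 groups compared (adjusted p = 0.0449). From 6 to 24 hours *Id1* rose by 1.64 (SE 0.371, adjusted p = 0.0016), the 1 member called between these times in SIRT1intKO livers.

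Between 6 and 24 hours in WT livers *Hamp* fell by 1.42, and the value of *Id1* was 1.03 (SE 0.384, adjusted p = 0.0626), which passed the test only without WT replicate 3 at 24 hours (1.33, adjusted p = 0.0148) or in DESeq2 (adjusted p = 0.0493).

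Of 24 other genes of the BMP-SMAD pathway that controls hepcidin, 23 were tested. In WT livers 2 were higher and 0 lower at 6 hours, with a median log2 fold change of 0.19 beside 0.02 for all genes, and 4 were higher and 2 lower at 24 hours (median 0.13 beside 0.02). *Fgl1*, which encodes a hepatocyte-secreted protein that binds BMP ligands, rose by 2.81 at 6 hours (SE 0.252, adjusted p = 8.42e-10) and by 2.60 at 24 hours. *Id3*, a relative of *Id1*, rose by 1.07 and 1.44. *Bmp2*, a ligand made by sinusoidal endothelial cells, fell by 1.72 at 24 hours (SE 0.358, adjusted p = 0.000529). *Smad9* was also lower at 24 hours (-1.64, adjusted p = 0.0161), and *Gdf15*, a stress-induced TGF-beta relative, was higher (2.28, adjusted p = 0.0326).

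In SIRT1intKO livers 3 of the 23 were higher and 0 lower at 6 hours (median 0.13 beside 0.01), and 2 were higher and 4 lower at 24 hours (median 0.00 beside 0.04). *Fgl1* rose by 2.51 and 2.00 at 6 and 24 hours, and *Id3* by 1.27 and 1.24. *Bmp6*, the endothelial ligand that follows iron, fell by 1.26 at 24 hours (SE 0.212, adjusted p = 1.62e-05). At the same time *Tmprss6*, a protease that restrains hepcidin, fell by 1.24 (SE 0.17, adjusted p = 8.38e-07) and *Smad9* by 1.52 (adjusted p = 0.00411). *Bmp2* in SIRT1intKO livers lay between 11.4 and 20.9 CPM at 0 hours and between 3.04 and 8.16 CPM at 24 hours, without overlap. The summed level of 6 markers of sinusoidal endothelium had a median of 124 CPM at 0 hours, 105 at 6 hours and 53.9 at 24 hours in WT livers and of 124, 74.7 and 76.9 CPM in SIRT1intKO livers, with 4 of 6 markers called lower at 24 hours in each genotype and 1 called higher in SIRT1intKO livers. At 6 hours 1 was called higher and 0 lower in WT livers, and 0 higher and 2 lower in SIRT1intKO livers. The part of these cells in the values of *Bmp2* and *Bmp6* was not tested. From 6 to 24 hours *Bmp2* was called lower in WT livers (-1.33, adjusted p = 0.01).

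The list for IL-6, STAT3 and other inputs to hepcidin had 12 of 13 genes tested. At 6 hours 0 were called in WT livers by edgeR (8 at an unadjusted p under 0.05, 1 called lower by DESeq2, median 0.10 beside 0.02), and in SIRT1intKO livers *Stat3* was higher (1.15, adjusted p = 1.19e-05) and *Cebpa*, a hepatocyte factor that activates *Hamp*, lower (-1.09, adjusted p = 0.00528). At 24 hours 3 were higher and 0 lower in WT livers (median 0.39), with *Socs3*, a feedback inhibitor of STAT3, at 1.65 (adjusted p = 0.0245) and *Stat3* at 1.16. WT replicates 1 to 4 had 244, 265, 49.1 and 55.7 CPM of *Socs3* at 24 hours, against 13.5 to 96.8 CPM at 0 hours. Replicates 3 and 4 were thus within the 0-hour range. In SIRT1intKO livers 3 were higher and 1 lower at 24 hours (median 0.47), with the cytokine *Il1b* at 1.70 and *Cebpa* at -1.91 (SE 0.279, adjusted p = 2.23e-06). By edgeR *Cebpa* was the 1 gene of this list called between genotypes at 24 hours (-1.37, SE 0.301, adjusted p = 0.0103), where DESeq2 called 1 higher and 1 lower. From 6 to 24 hours 2 genes were higher in WT livers, among them *Jak2* (1.05), and 3 in SIRT1intKO livers, among them *Il1b* (2.66).

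The classical uptake pair of transferrin and its receptor was called in no comparison. *Tfrc*, the transferrin receptor, lay between 11.1 and 30.2 CPM at 0 hours and between 8.82 and 18.9 CPM at 6 hours in WT livers, and had 40.6, 17, 21.9 and 23 CPM at 24 hours. All 3 WT groups overlapped, and the changes from 0 hours were -0.39 (95% interval -0.91 to 0.13) and 0.37 (-0.21 to 0.94). In SIRT1intKO livers it lay between 11.8 and 32.7 CPM at 0 hours, was 19.1, 10.4, 10.4, 18.2 and 14.3 CPM at 6 hours and lay between 11.9 and 27.9 CPM at 24 hours. The change at 6 hours was -0.74 (SE 0.281, adjusted p = 0.0368), which passed the adjusted p and not the fold threshold, and at 24 hours it was -0.45 (-0.95 to 0.05).

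*Trf*, which encodes transferrin, the iron carrier of plasma, was between 10700 and 13400 CPM in WT livers at 0 hours and between 12300 and 15100 CPM at 6 hours. At 24 hours the 4 WT livers had 34000, 20600, 16400 and 14400 CPM, all above the 0-hour group. That difference was 0.80 (SE 0.184, adjusted p = 0.00127), a 1.75-fold change that did not pass the fold threshold. In SIRT1intKO livers *Trf* lay between 11000 and 14500 CPM at 0 hours and between 12500 and 19800 CPM at 24 hours, with overlap, and the difference was 0.40 (SE 0.161, adjusted p = 0.0386).

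*Slc39a14*, the transporter ZIP14 that brings zinc, manganese and iron not bound to transferrin into hepatocytes, was the uptake gene that rose. WT livers lay between 103 and 305 CPM at 0 hours (median 167) and between 416 and 672 CPM at 6 hours (median 538), without overlap. The 4 WT livers at 24 hours split widely, with 970 and 1580 CPM in replicates 1 and 2 and 314 and 285 CPM in replicates 3 and 4, the last within the range of the 0-hour livers. The log2 fold change was 1.59 at 6 hours (SE 0.303, adjusted p = 0.000121) and 2.12 at 24 hours (SE 0.329, adjusted p = 1.92e-05), and the latter was 1.54 without replicate 2.

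SIRT1intKO livers lay between 117 and 212 CPM of *Slc39a14* at 0 hours (median 175), had 585, 507, 435, 815 and 608 CPM at 6 hours, and lay between 277 and 594 CPM at 24 hours (median 321). Both later groups were above the 0-hour livers. The change was 1.76 at 6 hours (SE 0.314, adjusted p = 5.98e-05) and 1.03 at 24 hours (SE 0.291, adjusted p = 0.00419). The 24-hour value went under the fold threshold, to between 0.85 and 0.99, without replicate 4 at 24 hours or replicate 2, 4 or 5 at 0 hours. Between 6 and 24 hours the difference was -0.73 (SE 0.297, adjusted p = 0.0635).

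*Slc40a1*, which encodes the exporter ferroportin and is expressed in Kupffer cells as well as hepatocytes, was lower at 6 hours without reaching the fold threshold. In WT livers it went from between 40.4 and 57.3 CPM (median 50.8) to between 15.4 and 50 CPM (median 27.6), a change of -0.78 (SE 0.278, adjusted p = 0.0271). In SIRT1intKO livers it went from between 50.9 and 62.6 CPM (median 57.5) to 41.2, 33.5, 51.4, 17.5 and 21 CPM, a change of -0.79 (SE 0.293, adjusted p = 0.0329), which was -1.01 without replicate 3 at 6 hours. The groups overlapped in both genotypes.

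At 24 hours the 4 WT livers had 41.1, 11.1, 41.3 and 42.2 CPM of *Slc40a1*, and SIRT1intKO livers lay between 33.2 and 75.1 CPM (median 56.4). The differences from 0 hours were -0.57 (95% interval -1.18 to 0.04) and -0.09 (-0.61 to 0.42). The low WT library, replicate 2, also had the lowest summed level of Kupffer cell markers, 29.4 CPM against 94.4 to 125 CPM in the other 3, and over groups the median of that sum was 180, 147 and 109 CPM in WT livers and 179, 119 and 175 CPM in SIRT1intKO livers at 0, 6 and 24 hours, with 0 of 7 markers called higher and 4 lower at 24 than at 0 hours in WT livers and 1 higher and 1 lower in SIRT1intKO livers. At 6 hours 1 was called higher and 3 lower in SIRT1intKO livers, and in WT livers edgeR called 0, with 0 at an unadjusted p under 0.05 and 0 called by DESeq2. The part of Kupffer cells in the values of *Slc40a1* was not tested.

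*Fth1*, the heavy chain of the iron store ferritin, passed the fold threshold in no comparison. It lay between 1370 and 1520 CPM at 0 hours and between 999 and 1510 CPM at 6 hours in WT livers, and had 2130, 1890, 1410 and 1390 CPM at 24 hours. In SIRT1intKO livers it lay between 1270 and 1490 CPM at 0 hours, between 1010 and 1310 CPM at 6 hours and between 1200 and 3330 CPM at 24 hours. The largest difference was between 6 and 24 hours in SIRT1intKO livers, 0.76 (SE 0.168, adjusted p = 0.00129).

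**Figure D2:**
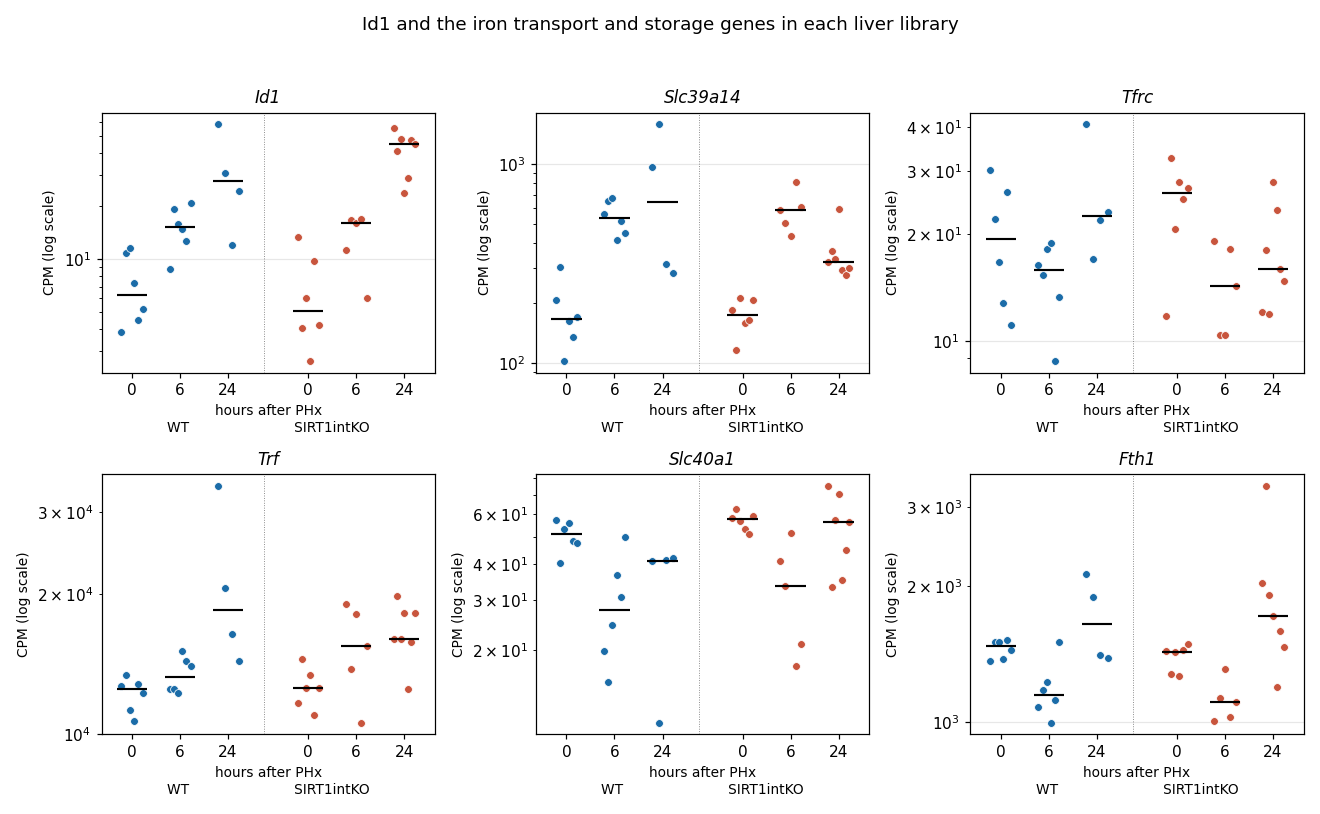
*Id1* and the genes of iron uptake, export and storage in each liver library, in CPM on log axes that differ between panels, against hours after PHx, with WT in blue, SIRT1intKO in red and lines at group medians. *Slc39a14* was at or above 416 CPM in every WT liver at 6 hours, and 1 WT liver at 24 hours stands apart at 11.1 CPM of *Slc40a1*.

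Among 22 other genes of iron uptake, storage and sensing 20 were tested. In WT livers 3 were higher and 1 lower at 6 hours (median -0.03 beside 0.02) and 4 higher and 0 lower at 24 hours (median 0.09). In SIRT1intKO livers 4 were higher and 1 lower at 6 hours (median 0.13) and 5 higher and 1 lower at 24 hours (median 0.05). *Lcn2*, which encodes lipocalin 2, a protein that binds bacterial iron carriers, rose by 7.49 at 6 hours and 8.26 at 24 hours in WT livers and by 7.63 and 8.51 in SIRT1intKO livers, with adjusted p of at most 3.63e-10. *Cp*, the plasma ferroxidase ceruloplasmin, was higher at 24 hours, by 1.43 in WT and 1.71 in SIRT1intKO livers.

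The STEAP metalloreductases, which reduce iron and copper for transport, did not move as a group. *Steap4* was 2.36 higher at 6 hours in WT and 3.20 higher in SIRT1intKO livers, and *Steap2* 1.32 and 1.27 higher. *Steap3* was lower, at -2.10 in WT (SE 0.252, adjusted p = 1.44e-07) and -1.65 in SIRT1intKO livers, and then rose between 6 and 24 hours by 2.09 and 1.33. *Slc25a37*, a mitochondrial iron importer, was higher at 24 than at 6 hours in WT livers (1.57, adjusted p = 0.00165). *Lcn2* and *Ltf* are also made by neutrophils, whose 6 markers summed to 6.92 to 100 CPM in WT and 20.8 to 930 CPM in SIRT1intKO livers at 24 hours, and at 6 hours to 5.14 to 57.6 and 7.91 to 14.7 CPM. Their part in these values was not tested.

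All 22 genes of heme synthesis, scavenging and breakdown were tested. In WT livers 3 were higher and 0 lower at 6 hours (median -0.10) and 4 higher and 2 lower at 24 hours (median -0.14). In SIRT1intKO livers 4 were higher and 1 lower at 6 hours (median -0.16) and 5 higher and 1 lower at 24 hours (median 0.01). The plasma scavengers led: *Hp* (haptoglobin, which binds free hemoglobin) rose by 2.53 and *Hpx* (hemopexin, which binds heme) by 2.48 at 6 hours in WT livers, and by 2.42 and 2.32 in SIRT1intKO livers. *Alas1*, the rate-limiting enzyme of heme synthesis in liver, rose by 2.20 at 6 hours in WT livers (SE 0.442, adjusted p = 0.000214) and by 1.74 in SIRT1intKO livers (SE 0.448, adjusted p = 0.00273), and between 6 and 24 hours it fell by 1.47 in WT and by 1.61 in SIRT1intKO livers. *Hmox1*, which breaks heme down, was called higher at 24 hours in both genotypes, by 1.66 in WT (SE 0.5, adjusted p = 0.0107) and 2.47 in SIRT1intKO livers (SE 0.468, adjusted p = 7.13e-05). WT replicates 1 to 4 had 167, 83.8, 30 and 13.6 CPM at 24 hours, against 16.4 to 46.4 CPM at 0 hours. Replicates 3 and 4 were thus not above the 0-hour range. In SIRT1intKO livers *Hmox1* lay between 14.5 and 29.8 CPM at 0 hours and between 24.6 and 200 CPM at 24 hours, with overlap. At 6 hours its change was 1.13 in WT livers (adjusted p = 0.0519, not called) and 1.89 in SIRT1intKO livers (adjusted p = 0.00242, called), and the interaction was 0.77 (SE 0.657, adjusted p = 1).

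The metallothioneins had the largest changes of the 10 genes in 3 of the 4 comparisons with 0 hours by absolute log2 fold change, the exception being WT livers at 24 hours, where *Hamp2* was further from 0. *Mt1* in WT livers lay between 18.6 and 1210 CPM at 0 hours (median 232) and between 2920 and 7530 CPM at 6 hours (median 3820), without overlap. At 24 hours the 4 livers had 3460, 5590, 1180 and 1450 CPM, of which replicate 3 was below the highest 0-hour liver. The log2 fold change was 3.57 at 6 hours (SE 0.746, adjusted p = 0.000338), an 11.9-fold rise, and 3.02 at 24 hours (SE 0.765, adjusted p = 0.00308). In SIRT1intKO livers *Mt1* lay between 10.7 and 575 CPM at 0 hours (median 91.3), was 3200, 3390, 3160, 3850 and 3630 CPM at 6 hours, and lay between 1200 and 7940 CPM at 24 hours (median 1940). The groups after PHx were both above the 0-hour group, by 4.46 (SE 0.789, adjusted p = 5.29e-05) and 4.26 (SE 0.762, adjusted p = 3.47e-05).

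*Mt2* followed *Mt1*. It lay between 8.11 and 838 CPM at 0 hours (median 113) and between 1770 and 3670 CPM at 6 hours (median 2410) in WT livers, and had 2670, 3850, 1170 and 1380 CPM at 24 hours. Both later groups were above the 0-hour livers, by 3.52 (SE 0.775, adjusted p = 0.000599) and 3.34 (SE 0.805, adjusted p = 0.00201). In SIRT1intKO livers it lay between 6.49 and 366 CPM at 0 hours (median 35.9), was 2110, 2530, 2280, 2750 and 2370 CPM at 6 hours and lay between 1270 and 4430 CPM at 24 hours (median 1670), with changes of 4.80 (SE 0.835, adjusted p = 4.17e-05) and 4.60 (SE 0.807, adjusted p = 2.77e-05). Again no liver after PHx was within the 0-hour range.

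The spread of the metallothioneins was far wider before PHx than at 6 hours. The highest 0-hour liver had 65.1 times the *Mt1* level of the lowest in WT and 53.7 times in SIRT1intKO mice, and at 6 hours the 5 SIRT1intKO livers all lay between 3160 and 3850 CPM. The highest 0-hour libraries, WT replicate 2 and SIRT1intKO replicate 3, set much of the size of the changes. Without WT replicate 2 the changes of *Mt1* and *Mt2* were 4.49 and 4.67 at 6 hours and 3.93 and 4.50 at 24 hours. Without SIRT1intKO replicate 3 they were 5.55 and 6.32 at 6 hours and 5.36 and 6.11 at 24 hours. These 2 livers also had the highest *Lcn2* of their groups at 0 hours, 39.3 and 46 CPM, where the other livers lay between 4.97 and 26.5 CPM. WT replicate 2 was the highest 0-hour WT library for 6 of the 10 genes.

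**Figure D3:**
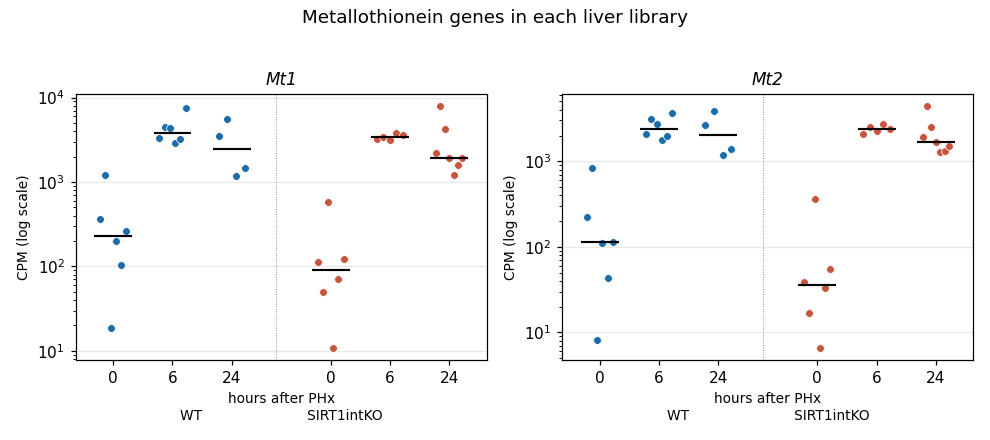
*Mt1* (left) and *Mt2* (right) in each liver library, in CPM on log axes, against hours after PHx, with WT in blue, SIRT1intKO in red and lines at group medians. The 0-hour livers spread from 10.7 to 1210 CPM of *Mt1*, and every liver at 6 hours was at or above 2920 CPM.

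The balance between the metallothioneins shifted toward *Mt2*. For every 1000 *Mt1* counts WT livers had between 413 and 695 *Mt2* counts at 0 hours (median 496), between 487 and 713 at 6 hours (median 621) and between 688 and 997 at 24 hours (median 862). SIRT1intKO livers had between 344 and 637 (median 457), between 654 and 745 (median 714) and between 558 and 1060 (median 815). The medians were higher at each later time in both genotypes, and the 6-hour SIRT1intKO livers were wholly above their 0-hour group, but most neighboring groups overlapped and no test was made of the ratio. *Mt1* and *Mt2* are similar genes whose reads the counting may have split unevenly.

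**Figure D4:**
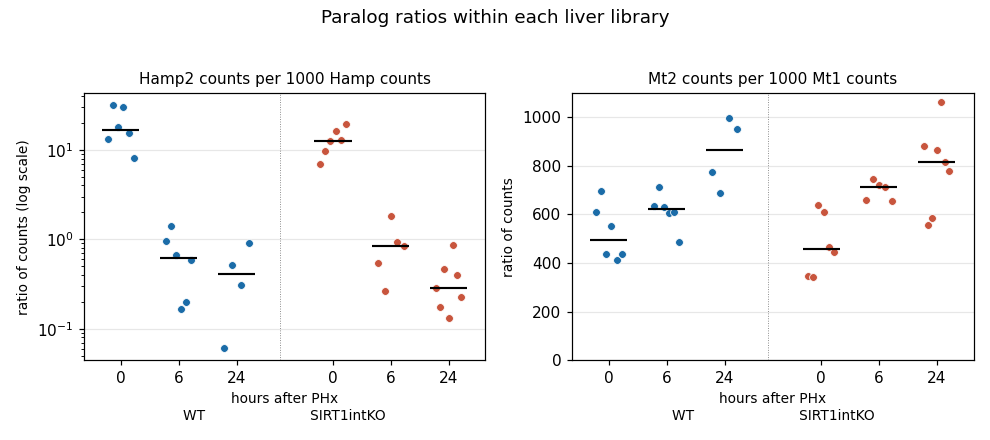
*Hamp2* counts per 1000 *Hamp* counts (left, log axis) and *Mt2* counts per 1000 *Mt1* counts (right, linear axis from 0) in each library, against hours after PHx, with WT in blue, SIRT1intKO in red and lines at group medians. The hepcidin ratio was at least 7.02 in every liver at 0 hours and at most 1.8 in every liver after PHx.

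Zinc transporters and *Mtf1* formed a list of 26 genes with *Mt3* and *Mt4*, of which 22 were tested. In WT livers 2 were higher and 0 lower at 6 hours (median 0.28 beside 0.02) and 6 higher and 0 lower at 24 hours (median 0.42). In SIRT1intKO livers 5 were higher and 0 lower at 6 hours (median 0.38 beside 0.01) and 4 higher and 2 lower at 24 hours (median 0.45 beside 0.04). *Mt3* and *Mt4* had 0 counts in every 0-hour liver. With their 0-hour level set at a floor of 3 counts per library, the 6-hour medians were 0.25 in WT and 0.32 in SIRT1intKO livers. A gene whose mean at 6 hours did not exceed this floor was left out, as both were in WT livers. The transporters *Slc30a5* and *Slc30a7*, which load zinc into the secretory pathway, rose by 1.48 and 1.05 at 6 hours in WT livers and by 1.60 and 1.23 in SIRT1intKO livers. *Slc39a6*, a zinc importer, was higher by 1.47 at 6 hours in SIRT1intKO livers and by 1.17 and 1.25 at 24 hours in WT and SIRT1intKO livers. *Slc39a2*, another importer, was lower at 24 hours in SIRT1intKO livers (-1.84, adjusted p = 0.000342).

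The 9 glucocorticoid-responsive genes did not move together. *Fkbp5* rose by 2.27 and *Per1* by 2.17 at 6 hours in WT livers and by 1.83 and 2.65 in SIRT1intKO livers, while *Tsc22d3* was lower at -1.55 and -1.63. In all, 3 were higher and 1 lower at 6 hours (median 0.42) and 2 higher and 2 lower at 24 hours (median -0.23) in WT livers. In SIRT1intKO livers 3 were higher and 2 lower at 6 hours (median 0.43) and 2 higher and 2 lower at 24 hours (median 0.02). *Per1* is also a clock gene, and clock time was not tested.

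Dividing cells are known to carry more transferrin receptor, and of 11 proliferation genes 10 were tested. In WT livers 1 was higher and 0 lower at 6 hours (median -0.22) and 1 higher and 1 lower at 24 hours (median -0.05). In SIRT1intKO livers 1 was higher and 0 lower at 6 hours (median -0.30) and 3 higher and 0 lower at 24 hours (median 0.32). *Ccnd1*, the cyclin of early G1, was the gene called higher at 6 hours, by 1.27 in WT and 1.65 in SIRT1intKO livers. At 24 hours *Ccnd1* was at 1.70 and *Mki67* at -1.40 in WT livers. *Ccnd1* was then at 2.95, *Mcm5* at 1.46 and *Mcm2* at 1.05 in SIRT1intKO livers. Between genotypes at 24 hours edgeR called 0 of the list, and DESeq2 called 1 higher and 0 lower in SIRT1intKO livers. *Tfrc* was called in none of the comparisons.

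Between SIRT1intKO and WT livers 1 of the 10 genes was called, at 24 hours. At 0 hours 0 of the 10 differed between genotypes by edgeR, with 0% of all genes called, 0 members at an unadjusted p under 0.05 and 0 members called by DESeq2. The furthest were *Mt2* at -1.37 (95% interval -2.78 to 0.03) and *Mt1* at -1.20 (-2.54 to 0.14), and *Hamp* differed by 0.11 (-0.64 to 0.85). Leaving out 1 library moved these values, which ran from -2.89 without SIRT1intKO replicate 3 to -0.22 without WT replicate 2 for *Mt2* and from -2.29 to -0.28 without the same libraries for *Mt1*. At 6 hours 0 members were called by edgeR and 0 by DESeq2 (0% of all genes by edgeR), and 1 had an unadjusted p under 0.05. That was *Hamp*, lower in SIRT1intKO livers at -0.89 (-1.69 to -0.10, adjusted p = 0.761), with overlapping groups.

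At 24 hours 1 member was called between genotypes, beside 2.68% of all genes. *Slc39a14* was 2.22-fold lower in SIRT1intKO than in WT livers (log2 fold change -1.15, SE 0.314, adjusted p = 0.0283), although its groups overlapped, with 277 to 594 CPM in 7 SIRT1intKO livers against 285 to 1580 CPM in 4 WT livers. The call depended on single libraries. The change was -0.57 (adjusted p = 0.26) without WT replicate 2 and -1.08 (adjusted p = 0.0583) without SIRT1intKO replicate 6, and the adjusted p was 0.3 with only the groups compared in the fit. With the replicate number as a block it was -0.92 (adjusted p = 0.142).

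The other members at 24 hours did not pass the test. *Slc40a1* was 0.65 higher in SIRT1intKO livers (95% interval 0.05 to 1.25, adjusted p = 0.192) and *Hamp* 0.74 higher (-0.09 to 1.57, adjusted p = 0.289). In fits that left out 1 library *Slc40a1* ranged from 0.36, without WT replicate 2, to 0.77. *Hamp* ranged from 0.31, without SIRT1intKO replicate 2, to 0.88. The intervals of *Mt1* (-1.39 to 1.48) and *Mt2* (-1.61 to 1.37) were wide enough to hold a difference of 2-fold in either direction, and that of *Fth1* (-0.20 to 0.50) was not. Among the lists, edgeR called *Cebpa* and *Slc30a10*, a manganese exporter (-1.03, SE 0.22, adjusted p = 0.00895), lower in SIRT1intKO livers. Recruited monocyte and macrophage markers summed to 43.4 to 339 CPM in SIRT1intKO and 30.6 to 101 CPM in WT livers at 24 hours, with 3 of 6 markers called higher in SIRT1intKO livers, and their part in these differences was not tested.

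A test of the interaction asked whether the change from 0 hours differed between genotypes. By edgeR 0 members were called at 6 hours (0% of all genes) and 0 at 24 hours (0.00668%), and DESeq2 also called 0 members at both times. At an unadjusted p under 0.05 there were 0 members at 6 hours and 2 at 24 hours. The 2 were *Slc39a14*, with -1.10 (SE 0.434, adjusted p = 0.288), and *Tfrc*, with -0.82 (SE 0.386, adjusted p = 0.376). Without 1 library each, *Slc39a14* ranged from -1.40 to -0.52, the latter without WT replicate 2 at 24 hours. *Tfrc* ranged from -0.98 to -0.53, the latter without WT replicate 1 at 24 hours. At 6 hours the interaction was 0.88 for *Mt1* (95% interval -1.03 to 2.80) and 1.28 for *Mt2* (-0.71 to 3.28). Leaving out 1 library moved these values from -0.03 without WT replicate 2 at 0 hours to 1.98 without SIRT1intKO replicate 3 at 0 hours for *Mt1*, and from 0.13 to 2.80 without the same libraries for *Mt2*.

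**Figure D5:**
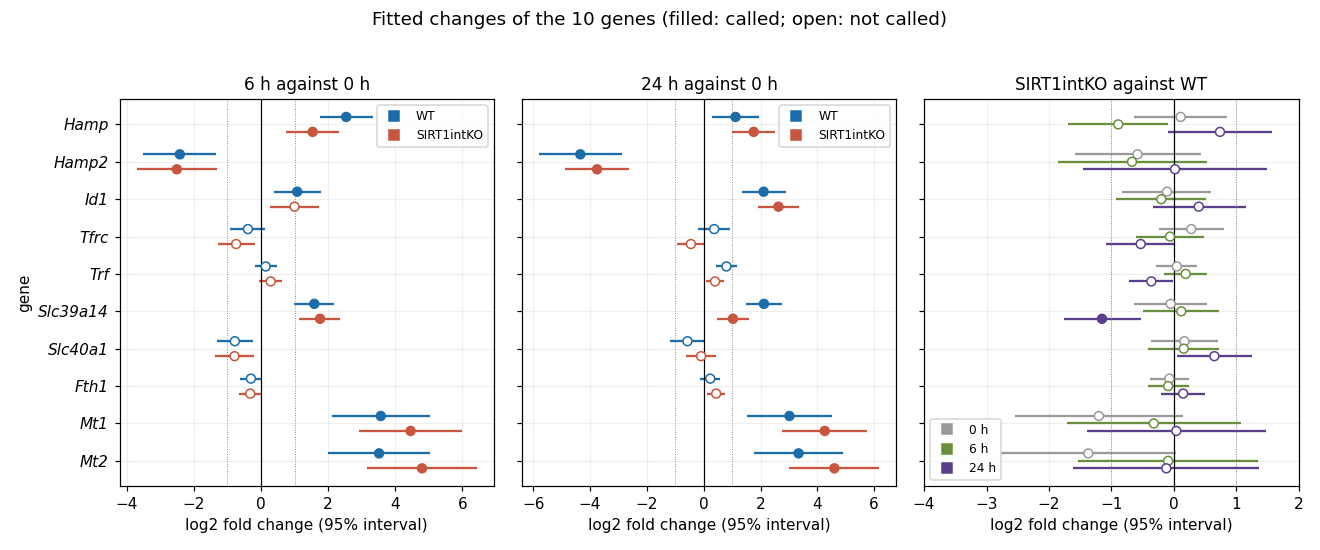
Fitted log2 fold changes of the 10 genes with 95% intervals, at 6 hours against 0 hours (left), at 24 hours against 0 hours (middle) and in SIRT1intKO against WT livers at each time (right). Filled points were called, by adjusted p and fold threshold together, and open points were not. Some open points passed the adjusted p alone. Dotted lines mark the fold threshold of 1. The interval of *Slc39a14* at 24 hours, from -1.76 to -0.53, belongs to the 1 filled point between genotypes.

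The genes most like *Hamp*, by Pearson correlation of log2 CPM over the 34 libraries among 12376 genes, were *Timm17a* (r = 0.90), a mitochondrial import subunit, *Ldha* (0.88), lactate dehydrogenase, *Denr* (0.87), a translation factor, *Mrpl17* (0.87), a mitochondrial ribosomal protein, and *Fam187b* (0.86). *Fam187b* is also a neighbor, the third protein-coding gene after *Hamp* on chromosome 7 in RefSeq's order on GRCm38.p6, past *Usf2* and *Lsr*. It rose by 1.74 at 6 hours in WT (SE 0.252, adjusted p = 2.92e-06) and by 1.30 in SIRT1intKO livers, while the genes between were at -0.38 and 0.24 in WT livers. For *Mt1* the nearest were a gene without a symbol here, ENSMUSG00000139891 (r = 0.93), *Serpina3m* (0.92), *Adcy1* (0.92), a further gene without a symbol, ENSMUSG00000135102 (0.92), and *Saa2* (0.91), an acute-phase protein. *Tfrc* had no close match, the nearest being *P4ha1* (r = 0.68), a collagen hydroxylase, and *Dnm1l* (0.62). The libraries share the course of PHx and their scaling, so these are descriptions of likeness over groups as well as within them.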

How the data were processed

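Groups follow the labels. The deposited values are expected counts, not normalized, which the authors obtained with Salmon and STAR in the nf-core RNA-seq pipeline from stranded 100-base paired reads. GRCm39 is the build in the submitters' processing notes, and the annotation version is not given in the sources used here. The study used DESeq2. Of 35 library columns, 34 matched a labelled sample and 1 matched none and was not used. In the table, 0 gene symbols contain the letter x. So 12 lines carry a member's symbol, of which 2 (*Mtx1* and *Mtx2* by identifier) are not members, and 1255 symbols were restored through GENCODE vM21.

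Of the expected counts 4.97% were not whole and were rounded. Under R 4.3.3, edgeR 4.0.16 gave TMM factors of 0.74 to 1.42, genes were filtered with filterByExpr, and 1 mean per group fitted by quasi-likelihood over 34 libraries. The SE was the absolute log2 fold change divided by the square root of the F statistic of the quasi-likelihood test. The 95% intervals used this SE with a normal quantile, so they can exclude 0 where that test does not pass. *Trf* between genotypes at 24 hours had -0.71 to -0.01 with an unadjusted p of 0.0535 in that test. P-values were Benjamini-Hochberg adjusted over 14980 genes. The labels call the libraries biological replicates. Values under 1 CPM rest on few reads. The fits were tested on simulated data. Smallest chi-square per gene between libraries of a group was 14.7, so none was a repeat of another in its group. Libraries of different groups were not compared in this way.

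Members and lists were chosen with earlier results of these data known. Named list genes are at most the 3 highest and 3 lowest called with a mean of at least 1 CPM per comparison. Cell type lists were summed in CPM. Alternatives were DESeq2 1.42.0, its size factors, 2 count filters, only the groups compared, glmTreat, no fold threshold, a replicate block, summed paralogs and left-out libraries.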

Additional observations from a re-analysis of the deposited data

Results flagged for a closer look

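Of 60 combinations of a gene and a group examined for a library standing apart, 2 had one, where chance gives about 1 in 20. *Slc39a14* in SIRT1intKO livers at 24 hours was 594 CPM in replicate 4, with the nearest other liver at 367 CPM. *Slc40a1* in WT livers at 24 hours was 11.1 CPM in replicate 2, with the nearest at 41.1 CPM. That library also had the lowest Kupffer cell markers of its group, whose part was not tested.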

How the results depend on the processing

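Over 11 settings other than leaving out 1 library, the 26 called results of the 10 genes gave 260 values, of which 0 reversed and 15 were no longer called. Values of results not called numbered 827 and gave 14 calls and 9 reversals. The settings glmTreat and no fold threshold keep the main fit, so neither could reverse a value. With no fold threshold a call could not be lost either. Leaving out 1 library gave 298 values of called results, with 22 calls lost and 0 reversed, and 1182 of results not called, with 9 gained and 52 reversed. The filter of at least 10 counts in every library left *Hamp2* without a value.

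Between 6 and 24 hours in WT livers, the 1 called member became 3 with DESeq2, 0 with glmTreat (a test against the fold threshold) and 3 with no fold threshold. In SIRT1intKO livers the 5 called at 6 hours became 8 with no fold threshold and 3 with *Hamp* and *Hamp2* and *Mt1* and *Mt2* summed, where fewer lines were tested, and the 1 called between 6 and 24 hours became 0 with glmTreat and 2 with no fold threshold. The 1 called between genotypes at 24 hours became 0 with glmTreat, with only the groups compared and with the replicate block. Apart from the summed lines and the threshold, the cause was not tested. *Hamp* at 24 hours against 0 hours in WT livers was not called with glmTreat, with every gene of at least 1 count (adjusted p = 0.0522) or with the replicate block (adjusted p = 0.0532). Against 0 hours glmTreat also lost *Hamp* in SIRT1intKO livers at 6 hours (adjusted p = 0.307) and 24 hours (0.0613). It lost *Slc39a14* in WT livers at 6 hours (0.114) and in SIRT1intKO livers at 24 hours (0.942), and *Id1* in WT livers at 6 hours.

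The labels number the replicates of every group from 1, and no source used here says that the numbers pair the livers. In 15 pairs of groups 0 had every correlation over 0.1, and of 76 same-numbered pairs 6 were over 0.1, between -0.31 and 0.22. Livers of different number were not correlated for reference, so these values cannot decide whether the numbers pair livers. The replicate block reversed *Slc39a14* (0.04) between genotypes at 0 hours, *Mt2* (0.08) between genotypes at 24 hours and *Slc40a1* (0.01) in the interaction at 6 hours. With paralogs summed, *Mt1* between genotypes at 24 hours was -0.03.

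As settings chosen after seeing the data, the library of highest *Mt1* was left out of both groups at a time. At 0 hours this left the counts of called members as they were and reversed *Id1* (0.07) and *Slc39a14* (0.10) between genotypes at 0 hours and *Slc40a1* (0.05) in the interaction at 6 hours. At 24 hours it left 0 called between genotypes and reversed *Slc39a14* in WT (-0.04) and *Hamp* in SIRT1intKO livers (-0.20) between 6 and 24 hours. *Hamp* at 24 hours against 0 hours in WT livers was then no longer called (1.00, adjusted p = 0.0671).

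Without 1 library each, the members called ranged from 0 to 2 between 6 and 24 hours in WT livers and from 0 to 1 between genotypes at 24 hours. Between 6 and 24 hours *Hamp* in SIRT1intKO livers ranged from -0.19 to 0.46, and in WT livers *Slc39a14* from -0.04 to 0.83 and *Mt2* from -0.54 to 0.07. Between genotypes at 24 hours *Hamp2* ranged from -0.34 to 0.60, *Fth1* from -0.06 to 0.25, *Mt1* from -0.43 to 0.56 and *Mt2* from -0.43 to 0.26. At 6 hours *Tfrc* ranged from -0.20 to 0.04, *Slc39a14* from -0.04 to 0.21, *Slc40a1* from -0.06 to 0.38 and *Mt2* from -0.19 to 0.04. At 0 hours *Hamp* ranged from -0.02 to 0.31, *Id1* from -0.44 to 0.07 and *Slc39a14* from -0.17 to 0.16. In the interaction at 6 hours *Hamp2* ranged from -0.61 to 0.44, *Id1* from -0.27 to 0.24, *Slc39a14* from -0.04 to 0.29, *Slc40a1* from -0.23 to 0.20, *Fth1* from -0.08 to 0.06 and *Mt1* from -0.03 to 1.98.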

Other observations

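*Mt3* and *Mt4*, the metallothionein genes beside *Mt2* on chromosome 8, were counted after PHx, an observation chosen after their values were seen. Both had 0 counts in 12 of 12 livers at 0 hours, and at 6 hours both had 0 to 7 counts per library. At 24 hours *Mt3* had 61, 79, 4 and 2 counts in WT replicates 1 to 4 and 67, 58, 81, 42, 2, 41 and 55 counts in SIRT1intKO replicates 1 to 7. *Mt4* had 26, 35, 1 and 0 counts in the WT livers and 61, 122, 65, 34, 1, 47 and 108 counts in the SIRT1intKO livers. WT replicates 3 and 4 and SIRT1intKO replicate 5, at 4 counts or fewer of each, also had the lowest *Mt1* of their groups. A 0 in a library allows up to 3 counts by counting error alone, and reads of *Mt1* or *Mt2* assigned to these relatives were not tested.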
